A study of Mus musculus with 18 samples.

Results

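Gene expression was compared between regulatory T (Treg) cells of the lung and Treg cells of the bone marrow, using 3 lung and 3 bone marrow libraries out of the 18 in the series. Both groups came from wild-type, untreated mice and were isolated fresh, and the series describes Treg cells as CD4+Foxp3+. The other 12 libraries, 3 each from spleen, lymph node, liver and peripheral blood, serve here only as levels for reference. The labels do not give the age or sex of the mice, the sorting gates, the way each organ was dissociated, or whether animals were pooled. Nothing in the labels says that the 3 libraries of a group came from separate animals, so p-values measure only the spread between these libraries, which may be technical.

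Treg cells are CD4 T cells that restrain immune responses and depend on the transcription factor Foxp3. Those that live in non-lymphoid organs such as the lung are known for tissue repair factors, for receptors of alarm signals and for marks of recent antigen contact. The bone marrow is where neutrophils, red cells and B cells are made, and its Treg cells are known to lie close to blood stem cells.

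In the lung libraries, Ramp3 and Crem, both tied to cyclic AMP signalling, were 75.5 and 35.0 times as high as in bone marrow, and 14 of 18 NF-kappaB genes and 20 of 29 effector and tissue Treg genes were higher there (limma, adjusted p under 0.05). In the bone marrow libraries, 19 of 24 genes of DNA replication and 20 of 24 genes of mitosis were higher, along with 13 of 23 interferon response genes and every neutrophil marker tested. Of all genes tested, 13.3% were higher in lung and 30.1% in bone marrow. Foxp3 and Ctla4 were higher in lung, while the levels of Cd4 and Cd3e overlapped. The values behind each of these statements follow.

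Expression is given in TPM, a library's share of transcripts after correction for transcript length. Relative depth came from the regular spacing of low TPM values: 1 read of an effective length of 1 kb was worth 0.226 to 0.242 TPM in lung and 0.114 to 0.116 TPM in bone marrow, so the lung libraries were the shallower. Lung libraries listed 15219 to 15606 genes above 0 TPM and bone marrow libraries 19633 to 19797, and a lung value of 0 is not evidence of absence. The variance between 2 replicates was 7.14 to 8.55 times that of counting noise in lung and 2.40 to 2.75 times in bone marrow. It was taken over 1238 to 1692 single-transcript genes per pair, those with enough reads. No pair of libraries held identical values. Mitochondrial genes took 8.503% ± 0.41 of all TPM in lung and 4.78% ± 0.22 in bone marrow (SD, n = 3), and ribosomal protein genes 21.0% ± 0.24 and 17.6% ± 0.11.

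The bone marrow libraries also carried a large amount of RNA typical of other blood cells. Markers of later neutrophil stages, 14 genes such as S100a9, Camp and Lcn2, summed to 48826, 48612 and 49045 TPM in the bone marrow libraries and to 1138, 1173 and 1240.0 TPM in the lung libraries. The 5 measured markers of the precursor stage, among them Mpo and Elane, summed to 1360.2, 1355 and 1353 TPM against 6.39, 6.38 and 21.6 TPM. Together these neutrophil genes made up 5.02% ± 0.02 of the bone marrow TPM and 0.12% ± 0.01 of the lung TPM. Erythroid markers (12 genes) summed to 6675 to 6877 TPM in bone marrow and 1509 to 1620.5 TPM in lung, B cell and B precursor markers (12 genes) to 1340 to 1407 against 638 to 776 TPM, and plasma cell markers (9 genes) to 2502 to 2579 against 520.0 to 547 TPM. Monocyte and macrophage markers (15 genes) summed to 3471 to 3571 TPM in bone marrow and 1168 to 1272 TPM in lung. Of them, 8 were higher in bone marrow and 4 in lung, against 30.1% and 13.3% of all genes tested.

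RNA of lung tissue was present in the lung libraries. Markers of lung epithelium (12 genes) summed to 327, 246 and 274 TPM there and to 20.5, 20.6 and 23.3 TPM in bone marrow, where 7 of the 12 were at 0 in every library. Scgb1a1 (ENSMUSG00000024653), the club cell secretory protein, held most of that sum with 264, 197 and 215 TPM in lung and was listed at 0 in all 3 bone marrow libraries. Sftpc (ENSMUSG00000022097), a surfactant protein of alveolar cells, had 25.2, 20.2 and 14.9 TPM and was likewise listed at 0 in bone marrow. The CD8 T and natural killer markers (12 genes) summed to 432 to 458 TPM in lung and 411 to 436 TPM in bone marrow. Of them, 3 were higher in lung, 2 were higher in bone marrow and 7 were not called, against 13.3% and 30.1% of all genes. The list includes Gzmb, also an effector Treg gene, which was higher in lung and held a large part of the lung sum. Similar sums therefore do not mean that the other members were alike. In bulk libraries, fewer cells of a type and less RNA per cell cannot be told apart. As each TPM is a share of the whole, RNA of other cells also lowers the TPM of every other gene in that library.

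**Figure D1:**
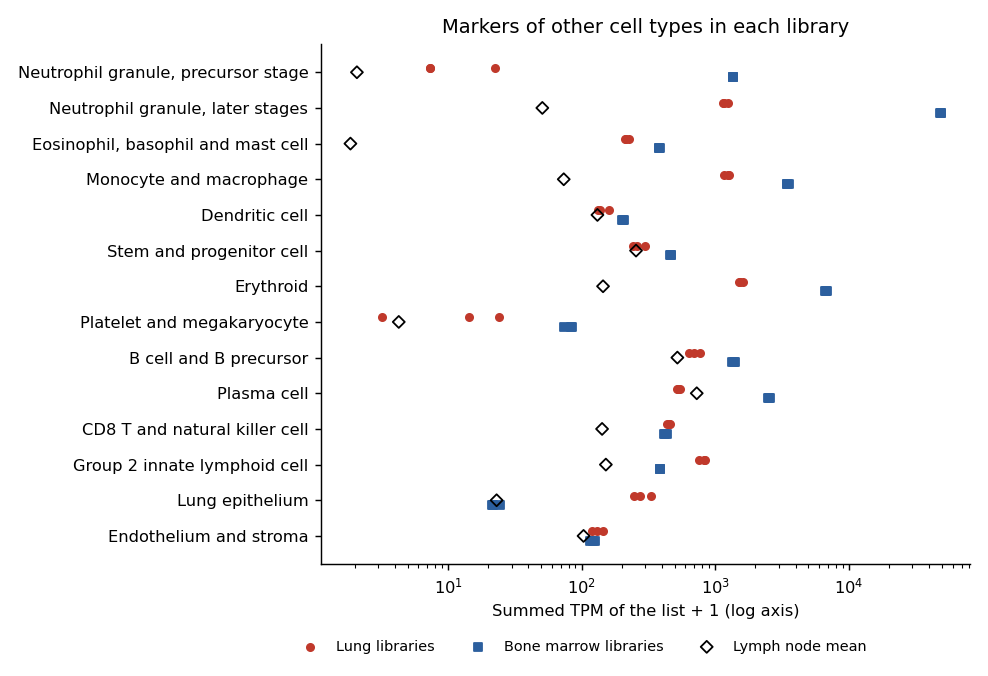
Summed TPM of 14 lists of markers of other cell types in each lung and bone marrow library (points, log axis, 1 added to each sum), with the lymph node mean as a diamond. Neutrophil, erythroid, B cell and plasma cell sums lie higher in all 3 bone marrow libraries, and the lung epithelium sum lies higher in all 3 lung libraries (246 to 327 TPM against 20.5 to 23.3 TPM).

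The label of the cells was checked on 5 genes. Foxp3 (ENSMUSG00000039521, chrX:7573644-7595245) was measured at 222, 237 and 232 TPM in the lung libraries and 148, 150.3 and 144 TPM in the bone marrow libraries. All lung values lay above all bone marrow values, and the log2 fold change was 0.64 (SE 0.05, limma adjusted p 0.000179). Ctla4 (ENSMUSG00000026011, chr1:60887000-60915832), the inhibitory receptor that takes B7 ligands away from CD28, had 1554, 1460.4 and 1443 TPM in lung and 309.6, 297 and 301 TPM in bone marrow. It was 4.91 times as high in lung, with a log2 fold change of 2.29 (SE 0.04, limma adjusted p 6.98e-07).

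Cd3e (ENSMUSG00000032093), a subunit of the T cell receptor complex, had 409, 429 and 458 TPM in lung and 416, 435 and 441 TPM in bone marrow, and the groups overlapped. Its log2 fold change was 0.00 with a 95% interval of -0.13 to 0.14. Cd4 (ENSMUSG00000023274) overlapped too, with 247, 324 and 276 TPM and 276, 285 and 260.3 TPM and an interval of -0.21 to 0.28. Il2ra (ENSMUSG00000026770), the alpha chain of the IL-2 receptor, had 72.5, 83.9 and 72.3 TPM in lung and 57.9, 52.8 and 60.7 TPM in bone marrow, a log2 fold change of 0.41 with a limma adjusted p of 0.0153. This call was lost without bone marrow replicate 1 (adjusted p 0.0542) or replicate 2 (adjusted p 0.0633).

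Across the 14944 genes that averaged 1 TPM or more in the lung or the bone marrow libraries, 1989 were called higher in lung and 4505 higher in bone marrow at a limma adjusted p under 0.05. These are 13.3% and 30.1% of the genes tested, and 43.5% in either direction. Of them, 883 (5.91%) in lung and 2621 (17.5%) in bone marrow also differed by at least 1 log2 unit. The 3 lung libraries did not overlap the 3 bone marrow libraries for 57.2% of the tested genes. Fold changes are lung minus bone marrow on the log2(TPM + 1) scale, on which the change of a low gene comes out too small, and their median standard error was 0.23. The median over all tested genes was -0.29. Scaling each library by its median log2 ratio shifted lung against bone marrow by 0.29, moved the median over all tested genes to -0.04 and split the calls into 3024 higher in lung and 3067 higher in bone marrow.

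The lymph node libraries had the lowest sums of neutrophil markers among the 6 sites (49.9 TPM for the later stages), so genes with at least 10 TPM there were also counted on their own. Of these 8415 genes, 1399 (16.6%) were higher in lung and 2724 (32.4%) higher in bone marrow, 49% in either direction, and their median log2 fold change was -0.22. Among the other 6529 tested genes, 590 (9.04%) were higher in lung and 1781 (27.3%) higher in bone marrow. The lymph node filter did not remove all markers of other cells. It kept 2 later neutrophil, 3 monocyte and macrophage, 5 erythroid and 5 B lineage markers, among them S100a9 and S100a8.

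**Figure D2:**
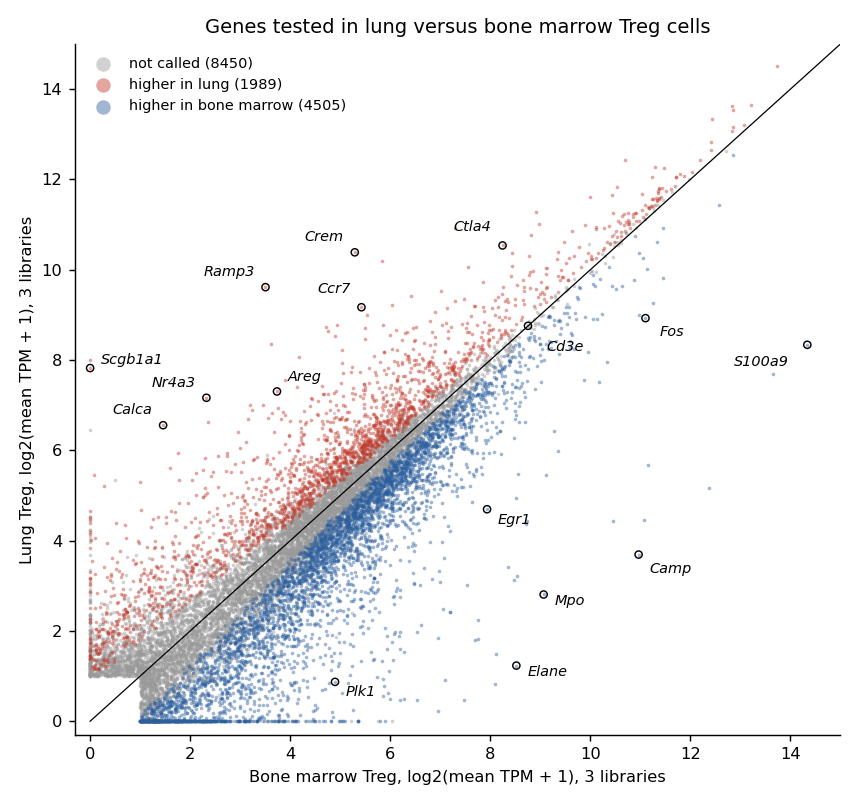
Each point is 1 of the 14944 tested genes, placed by log2 of its mean TPM plus 1 in bone marrow (x) and in lung (y), with the line of equal expression. Crem, Ramp3 and Ctla4 lie above the line and neutrophil granule genes such as S100a9, Camp and Elane far below it, while Cd3e lies on it.

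Among called genes with a mean of 10 TPM or more in lung, the largest log2 fold change after that of epithelial Scgb1a1 was that of Ramp3 (ENSMUSG00000041046, chr11:6658521-6677475, plus strand). It encodes an accessory protein that sets the ligand choice of calcitonin-type receptors, which signal through cyclic AMP (cAMP). Ramp3 was measured at 794, 769.7 and 784 TPM in the lung libraries and 11.9, 8.04 and 11.1 TPM in the bone marrow libraries. Lung was 75.5 times as high, with a log2 fold change of 6.12 (SE 0.14, limma adjusted p 1.21e-06). Of the other sites, liver had 92.97 ± 5.48 TPM (SD, n = 3) and spleen, lymph node and blood had 4.09, 2.76 and 2.62 TPM. Calcrl, the receptor that pairs with Ramp3, had 12.9 ± 3.39 TPM in lung and 11.2 ± 1.11 in bone marrow and did not pass the test (95% interval -0.36 to 0.68).

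Crem (ENSMUSG00000063889, chr18:3266048-3337748), a transcription factor of the cAMP response whose short forms repress cAMP targets, had 1300.5, 1365 and 1345 TPM in lung and 42.6, 34.3 and 37.6 TPM in bone marrow. Its values did not overlap and its log2 fold change was 5.10 (SE 0.08, limma adjusted p 5.19e-07). Calca (ENSMUSG00000030669), which encodes calcitonin and the peptide CGRP, had 61.9, 93.5 and 124 TPM in lung and 1.51, 1.47 and 2.28 TPM in bone marrow. Its 3 lung values spread more widely than those of Crem, and its log2 fold change was 5.05 (SE 0.28).

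In the list of 26 cAMP pathway genes, 11 were higher in lung, 6 were higher in bone marrow and 9 were not called, where 13.3% and 30.1% of all genes tested were called higher in lung and in bone marrow. The list median was 0.07, against -0.29 for all genes tested, and was 0.21 without lung replicate 1, 0.04 without bone marrow replicate 3 and 0.35 when libraries were scaled by the median log2 ratio. After Ramp3, Crem and Nr4a3, the phosphodiesterase Pde4d, which breaks down cAMP, had the next largest difference, with 125 ± 6.18 TPM in lung and 20.02 ± 1.48 in bone marrow (SD, n = 3, log2 fold change 2.59). The adenosine receptor Adora2a (1.77), the kinase Sik1 (1.70) and the phosphodiesterases Pde7a (1.36), Pde4b (1.27) and Pde3b (1.21) were higher in lung as well. Among the members higher in bone marrow were the cyclase Adcy7 (-1.37), the kinase subunit Prkaca (-1.05) and the coactivator Crtc3 (-0.84). Gnas, the stimulatory G protein, had 432 ± 17.9 TPM in lung and 436 ± 3.37 in bone marrow.

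Nr4a3 (ENSMUSG00000028341, chr4:48045153-48086447, plus strand), an orphan nuclear receptor induced by antigen receptor and cAMP signals, had 141, 130.2 and 156 TPM in lung and 4.38, 3.24 and 4.40 TPM in bone marrow. Lung was 35.6 times as high (log2 fold change 4.84, SE 0.15, limma adjusted p 3.34e-06). Areg (ENSMUSG00000029378, chr5:91139599-91148432, plus strand), the growth factor amphiregulin by which tissue Treg cells aid epithelial repair, had 139, 175 and 158 TPM in lung and 10.7, 16.1 and 10.1 TPM in bone marrow. Its groups lay far apart, with lung 12.7 times as high (log2 fold change 3.59, SE 0.19, limma adjusted p 2.68e-05). The promoters of Areg and Nr4a3 are shown because both genes stand among the largest differences and their windows hold letters of the cAMP response element. They run from 250 bases before to 50 bases after the RefSeq start, 5′ to 3′ on the strand of the gene, at chr5:91139349-91139648 for Areg and chr4:48045055-48045354 for Nr4a3 (GRCm38.p6). Capitals mark TGACG or its reverse complement, the core of the full element TGACGTCA.
Areg: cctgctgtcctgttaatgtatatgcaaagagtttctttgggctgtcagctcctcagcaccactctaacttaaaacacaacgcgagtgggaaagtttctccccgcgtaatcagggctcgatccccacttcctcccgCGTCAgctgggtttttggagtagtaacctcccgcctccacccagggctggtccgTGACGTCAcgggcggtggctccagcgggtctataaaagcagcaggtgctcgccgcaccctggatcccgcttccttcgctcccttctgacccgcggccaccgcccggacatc
Nr4a3: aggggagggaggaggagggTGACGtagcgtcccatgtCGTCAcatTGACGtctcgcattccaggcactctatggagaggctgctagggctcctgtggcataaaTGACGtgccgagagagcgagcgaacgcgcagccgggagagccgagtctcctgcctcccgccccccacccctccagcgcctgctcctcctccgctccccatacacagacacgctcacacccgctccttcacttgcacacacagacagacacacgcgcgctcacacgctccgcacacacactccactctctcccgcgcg
The Areg window holds the full TGACGTCA, whose first base lies 61 bases before the start and which counts as overlapping cores on both strands, and a further core that begins 115 bases before the start. The Nr4a3 window holds 4 cores, which begin 231, 213, 205 and 147 bases before the start, and no full element.

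On either strand, TGACG occurs in at least 1 promoter window of 23% of the 27025 mouse genes with a window, and TGACGTCA in 2.03%. Among the immediate early genes with a window, TGACG was found for 15 of 23 (65.2%). These include 7 of the 9 such genes higher in lung and 5 of the 10 higher in bone marrow. Among the cAMP pathway genes it was found for 10 of 18 (55.6%). Ramp3 held none of the 4 motifs searched, which were TGACGTCA, TGACG, the AP-1 site TGANTCA and the cell cycle element TTTGAA. A match describes these letters only and is not a measured binding site.

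Further genes with large differences among those expressed in lymph node Treg cells were Dusp10, Vps37b, Got1, Gramd3, Plagl1, Mvk and Tubb2a. Dusp10 (ENSMUSG00000039384), a phosphatase that turns off the kinases JNK and p38, had 333, 313 and 327 TPM in lung and 10.4, 11.5 and 11.97 TPM in bone marrow (log2 fold change 4.73, SE 0.08). Vps37b (ENSMUSG00000066278), a subunit of the ESCRT sorting complex, reached 1181, 1144 and 1166 TPM in lung against 55.8, 57.4 and 55.5 TPM in bone marrow, with a log2 fold change of 4.35 (SE 0.04, limma adjusted p 8.47e-08). The log2 fold change was 4.12 for Plagl1, a zinc finger factor, 3.89 for the aspartate aminotransferase Got1, 3.84 for Gramd3, 3.79 for the mevalonate kinase Mvk and 3.67 for the tubulin Tubb2a.

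**Figure D3:**
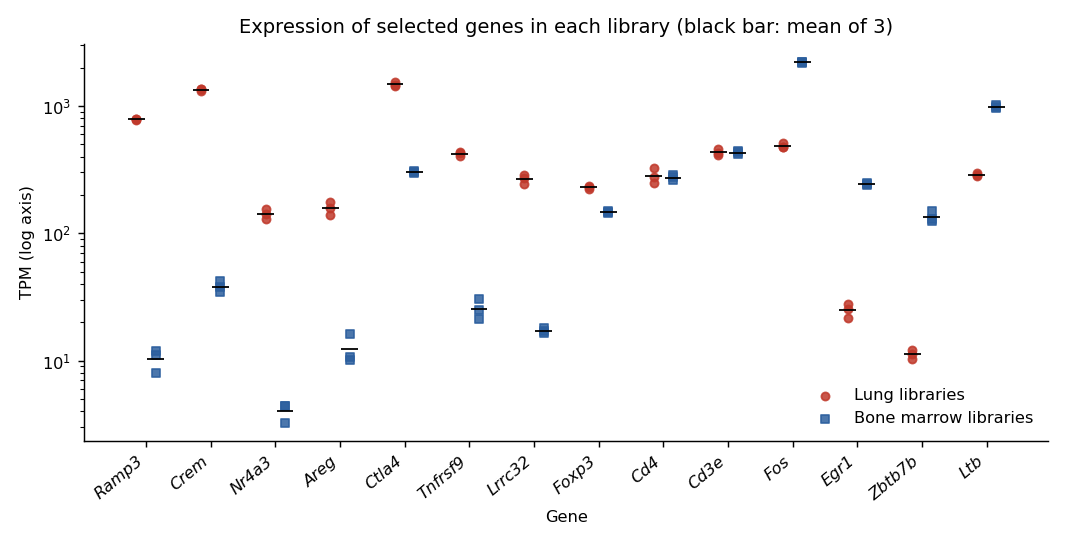
TPM of 14 genes in each of the 3 lung and 3 bone marrow libraries (points, log axis), with a black bar at each mean. Ramp3, Crem, Nr4a3, Areg, Tnfrsf9 and Lrrc32 lie more than 10 times higher in lung, Fos, Egr1, Zbtb7b and Ltb lie higher in bone marrow, and the Cd4 and Cd3e points overlap.

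Genes of the immediate early response, which are switched on within minutes of stimulation, divided between the organs. Of 28 such genes, 10 were higher in lung, 13 were higher in bone marrow and 5 were not called, against 13.3% and 30.1% of all genes tested. The median was -0.38, and was -0.20 without lung replicate 2 and -0.10 when libraries were scaled by the median log2 ratio. On the lung side, after Nr4a3, the kinase phosphatase Dusp4 had 118 ± 5.53 TPM against 8.46 ± 0.34 TPM (SD, n = 3, log2 fold change 3.65). The AP-1 member Fosl2 (ENSMUSG00000029135) had 351, 391 and 369 TPM in lung and 29.8, 27.2 and 28.8 TPM in bone marrow, a log2 fold change of 3.65 (SE 0.07). The small Maf protein Maff (2.94), Nr4a2 (2.80), Gadd45b (2.22) and Dusp5 (2.21) were higher in lung too.

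On the bone marrow side stood the classical AP-1 genes and Egr1. Egr1 (ENSMUSG00000038418, chr18:34859823-34864984), a zinc finger factor induced by growth factor and antigen receptor signals, had 21.7, 25.3 and 27.7 TPM in lung and 247, 239.8 and 244 TPM in bone marrow, a log2 fold change of -3.25 (SE 0.10, limma adjusted p 3.78e-06). Fos (ENSMUSG00000021250) had 472, 473 and 513 TPM in lung and 2184, 2199.6 and 2209.7 TPM in bone marrow (log2 fold change -2.18, SE 0.04). Its partner Jun had 76.8 ± 6.02 TPM in lung and 354 ± 6.47 in bone marrow (-2.19), Fosb had a log2 fold change of -1.64, and the feedback genes Dusp2 (-1.53), Zfp36 (-1.32) and Dusp1 (-1.21) were higher in bone marrow as well. Within the AP-1 family, Fosl2 was higher in lung, Fos, Fosb, Jun and Jund (-0.65) were higher in bone marrow, and Junb overlapped with 1606, 1521 and 1700.5 TPM against 1539, 1566 and 1571 TPM. Nr4a1, the relative of Nr4a3 most used to report antigen receptor signals, was called higher in lung with the smaller difference of 0.49 (786 ± 50.8 TPM in lung and 557 ± 13.2 in bone marrow). Neutrophil and monocyte markers were also higher in bone marrow, and their part in these values was not tested.

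**Figure D4:**
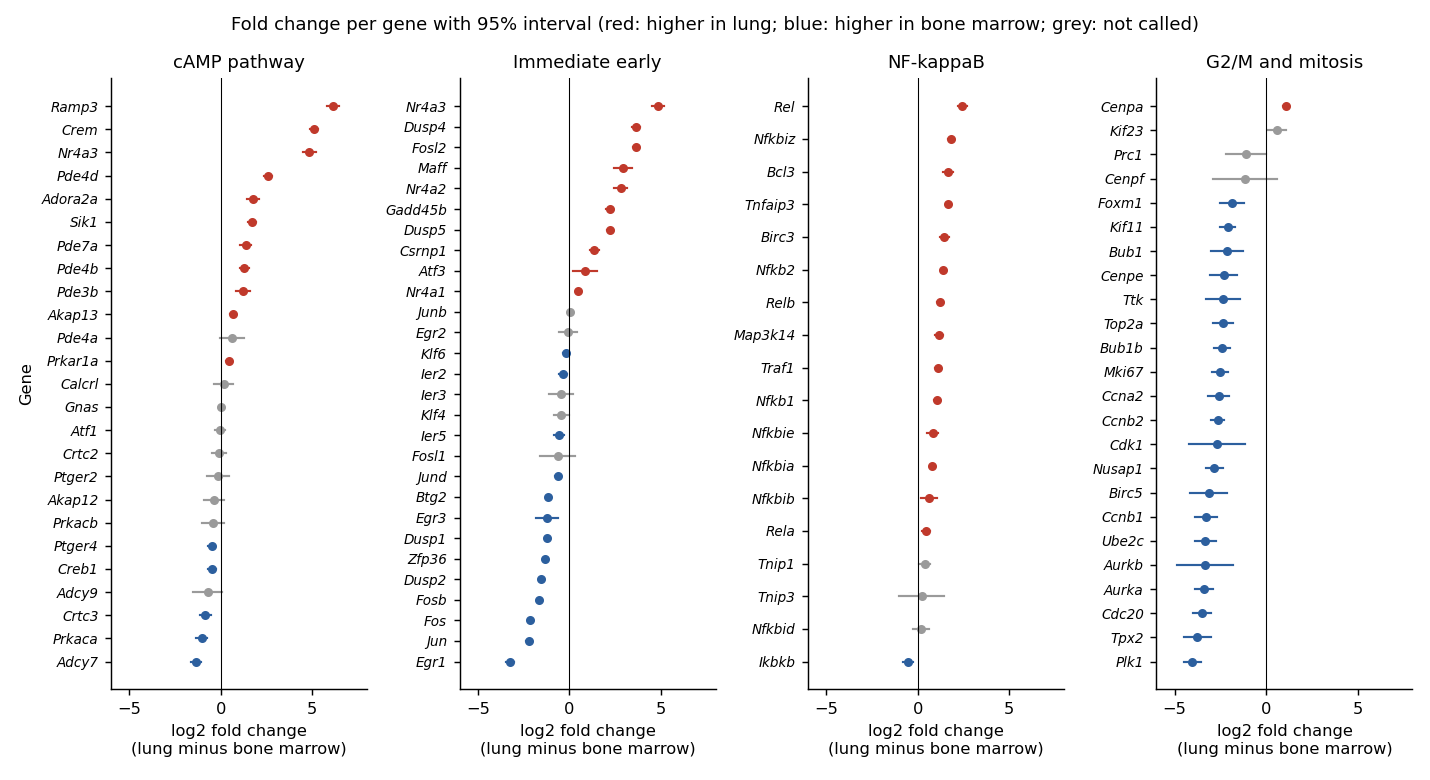
Log2 fold change, lung minus bone marrow, with its 95% interval for tested genes of 4 lists (red higher in lung, blue higher in bone marrow, grey not called). Immediate early and cAMP pathway genes fall on both sides of 0, 14 of 18 NF-kappaB genes lie to the right, and 20 of 24 mitotic genes lie to the left.

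NF-kappaB, the transcription factor family behind much of T cell activation, was the list with the largest share of its members higher in lung. Of its 18 subunits, inhibitors and targets, 14 were higher in lung, 1 was higher in bone marrow and 3 were not called. The shares of all genes were 13.3% and 30.1%, and the list median was 1.08. Rel (ENSMUSG00000020275), the c-Rel subunit needed for Treg development, had 103, 107 and 87.8 TPM in lung and 16.9, 17.1 and 18.4 TPM in bone marrow (log2 fold change 2.44, SE 0.11). Tnfaip3 (ENSMUSG00000019850), the feedback inhibitor A20, had 1082, 1099 and 1082 TPM in lung and 349.8, 340.4 and 344 TPM in bone marrow (1.66, SE 0.03). The atypical inhibitors Nfkbiz (1.81) and Bcl3 (1.67), and the subunits Nfkb2 (1.41), Relb (1.22), Nfkb1 (1.05) and Rela (0.45), were all higher in lung. Ikbkb, a kinase of the pathway, was the member higher in bone marrow (-0.52, limma adjusted p 0.0135), a call lost without bone marrow replicate 2 (adjusted p 0.0587) or replicate 3 (adjusted p 0.0573).

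Several receptors of the TNF family were higher in lung. Tnfrsf9 (ENSMUSG00000028965, chr4:150914562-150946102), the costimulatory receptor 4-1BB that marks recently activated Treg cells, had 404, 434 and 430.3 TPM in lung and 25.01, 21.04 and 30.3 TPM in bone marrow. Lung was 16.6 times as high, with a log2 fold change of 4.02 (SE 0.13, limma adjusted p 4.7e-06). Tnfrsf4 (OX40) had 652 ± 28.4 TPM in lung and 177 ± 1.39 in bone marrow (SD, n = 3, 1.87), and Tnfrsf18 (GITR, 1.32) and Tnfrsf1b (TNF receptor 2, 1.18) were higher as well. Over the 15 tested members of the family, 5 were higher in lung, against 13.3% of all genes. Another 5 were higher in bone marrow, near the 30.1% of all genes, and 5 were not called. The median of 0.08 was -0.04 without lung replicate 2, -0.001 without bone marrow replicate 3, 0.14 without lung replicate 3 and 0.16 without bone marrow replicate 2, and 0.25 under the median log2 ratio scaling. The 5 higher in bone marrow included Ltbr (-1.31), Tnfrsf14 (-1.22) and Tnfrsf1a (-0.87), and only 2 of the 5 calls were made without bone marrow replicate 2 or without replicate 3. The call of Tnfrsf14 was lost without lung replicate 1 (adjusted p 0.0541) and bone marrow replicates 2 (0.0716) and 3 (0.0736), and that of Tnfrsf1a without bone marrow replicates 1 (0.051) and 3 (0.0515).

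Among 18 core Treg genes, 10 were higher in lung, 5 were higher in bone marrow and 3 were not called, with a median of 0.52. Of all genes, 13.3% were higher in lung and 30.1% in bone marrow, so the bone marrow count was near that share. Lrrc32 (ENSMUSG00000090958, chr7:98489283-98502181), also named GARP, holds latent TGF-beta on the Treg surface and had 272, 245 and 287 TPM in lung and 17.9, 16.4 and 17.2 TPM in bone marrow. The lung values lay 15.6 times as high (log2 fold change 3.88, SE 0.09, limma adjusted p 1.18e-06), and the other sites ranged from 39.1 TPM in blood to 88.8 TPM in lymph node. Nt5e, the ectoenzyme CD73 that makes adenosine, was also higher in lung (1.501). Nrp1 (ENSMUSG00000025810), a surface receptor of Treg cells from the thymus, was higher in bone marrow with 123, 121 and 130.5 TPM against 41.1, 51.6 and 52.1 TPM (-1.36, SE 0.11). Ikzf2, which encodes Helios, had the smaller difference of -0.31. Capg (-0.75), Izumo1r (-0.74) and Itgae (-0.34) were the others higher in bone marrow, and the 5 calls became 3 without any single bone marrow library. The call of Itgae was lost without any of these libraries and without lung replicate 1 or 2 (adjusted p 0.0545 to 0.104).

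Effector and tissue Treg genes were mostly higher in lung: 20 of 29 tested, with 4 higher in bone marrow, 5 not called and a median of 1.34. The shares of all genes were 13.3% in lung and 30.1% in bone marrow. After Areg, the inhibitory receptor gene Pdcd1 (ENSMUSG00000026285, PD-1) had 276, 309 and 301 TPM in lung and 31.1, 33.05 and 31.4 TPM in bone marrow (log2 fold change 3.17, SE 0.07). Gzmb, the cytotoxic protease granzyme B, had 141 ± 15.5 TPM in lung and 20.4 ± 3.49 in bone marrow (SD, n = 3, 2.74). The transcription factor genes Nfil3 (2.57), Bhlhe40 (2.54), Rora (1.96), Pparg (1.71), Batf (1.34) and Gata3 (1.02) were all higher in lung. Icos, a costimulatory receptor, had a log2 fold change of 2.22, the inhibitory receptors Havcr2 and Tigit 2.67 and 1.70, and the suppressive cytokine Il10 1.68 (35.7 ± 5.47 TPM in lung and 10.4 ± 0.95 in bone marrow). Ebi3 (ENSMUSG00000003206), a chain of interleukin-35, ran against the list with 8.79, 5.93 and 6.51 TPM in lung and 38.1, 35.1 and 37.7 TPM in bone marrow (-2.25, SE 0.17), together with Fgl2 (-0.87) and Maf (-0.29, not called without any single bone marrow library, with adjusted p 0.0541 to 0.0824).

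Il1rl1 (ENSMUSG00000026069), the receptor ST2 for the alarm cytokine IL-33, had 290.2, 255 and 254 TPM in lung and 116, 112 and 112 TPM in bone marrow, a log2 fold change of 1.22 (SE 0.07). Liver lay between them with 156 TPM, and spleen (17.4 TPM), lymph node (25.5 TPM) and blood (12.5 TPM) lay lower. Il1rl1, Gata3, Areg and Calca are also used as markers of group 2 innate lymphoid cells. These 4 of the 11 tested markers of that cell type were higher in lung, against 13.3% of all genes. The summed level of the list was 755 to 837 TPM in lung and 383 to 388 TPM in bone marrow. Of its other members, Il13 and Arg1 were listed at 0 in all 3 lung libraries and Il5 had 0, 1.57 and 2.03 TPM. Il17rb (-1.74), Nmur1 (-1.41) and Il9r (-1.87) were higher in bone marrow, where 30.1% of all genes were. The part of such cells in these 4 genes was not tested.

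Genes of resting T cells were more often higher in lung, with 10 of 20 called higher there, against 13.3% of all genes. Of the others, 4 were higher in bone marrow, where 30.1% of all genes were, and 6 were not called. The list median was 0.76. Ccr7 (ENSMUSG00000037944, chr11:99144196-99155077), the receptor that brings T cells into lymph nodes, had 565, 581 and 578 TPM in lung and 41.3, 44.8 and 39.7 TPM in bone marrow, a log2 fold change of 3.75 (SE 0.06, limma adjusted p 5.19e-07). The lung mean of 575 TPM lay above the means of the other 5 sites, of which blood had 269 TPM and lymph node 197 TPM. Satb1 (ENSMUSG00000023927), a chromatin organiser that is kept low in mature Treg cells, had 457, 384 and 417 TPM in lung and 44.6, 42.95 and 45.6 TPM in bone marrow (3.21, SE 0.08). S1pr1, the receptor for exit from tissues, had 501 ± 20.6 TPM and 196 ± 4.15 TPM (SD, n = 3, 1.35), and Lef1 (1.07), Ets1 (1.12) and Foxp1 (1.17) were higher in lung too. Klf2 (ENSMUSG00000055148), a factor that drives S1pr1, was higher in bone marrow, with 771, 766 and 791 TPM against 328, 343 and 357 TPM (-1.18, SE 0.04). Sox4 (-2.01), Il6ra (-0.86) and Tcf7 (-0.32) were the others higher in bone marrow, and Tcf7 was not called when libraries were scaled by the median log2 ratio (adjusted p 0.667).

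The chemokine and egress receptors fell on both sides, with 6 of 20 tested higher in lung, 7 higher in bone marrow and 7 not called, against 13.3% and 30.1% of all genes. Their median was -0.10, and 0.17 when libraries were scaled by the median log2 ratio. Besides Ccr7 and S1pr1, the tissue Treg receptor Ccr8 had 60.7, 48.05 and 49.4 TPM in lung and 19.4, 19.6 and 19.6 TPM in bone marrow (1.38, SE 0.12), and Ccr4 had a log2 fold change of 0.88. Ccr10 (ENSMUSG00000044052), a receptor for ligands made by skin and mucosal epithelium, was higher in bone marrow with 11.8, 10.6 and 12.7 TPM against 1.21, 0.61 and 0.64 TPM (-2.81, SE 0.23). Cxcr4, which retains cells in the bone marrow, had 437 ± 28.97 TPM in lung and 619.8 ± 17.7 in bone marrow (-0.51), and its ligand gene Cxcl12 had 0.05 and 9.73 ± 0.95 TPM. Ccr1 (-1.71), Cx3cr1 (-1.31) and Ccr9 (-1.14) were higher in bone marrow. Cx3cr1 is also one of the monocyte and macrophage markers. Sums of such markers and of neutrophil markers were higher in bone marrow, and their part in these values was not tested. Cxcr3 was called higher in bone marrow with a log2 fold change of -0.37, and Cxcr6 overlapped between the groups.

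Of 20 integrin and adhesion genes, 5 were higher in lung, 11 were higher in bone marrow and 4 were not called. The shares of all genes were 13.3% and 30.1%. The list median of -0.34 was -0.05 when libraries were scaled by the median log2 ratio. Itgav (ENSMUSG00000027087), the alpha V chain that can activate latent TGF-beta, had 105, 119.7 and 107 TPM in lung and 20.8, 26.1 and 19.99 TPM in bone marrow (2.27, SE 0.13), and its partner chain Itgb3 had a log2 fold change of 0.79. Itgam, the myeloid chain CD11b, had 7.83 ± 0.97 TPM in lung and 113 ± 2.06 in bone marrow (SD, n = 3, -3.69), beside the neutrophil sums given above. The integrin genes Itgb2 (-1.18), Itga4 (-0.67), Itgal (-0.67) and Itgb1 (-0.499) were higher in bone marrow. The part of neutrophils and other cells in these integrin values was not tested. Cd69, a surface protein that opposes exit from tissues, was also higher in bone marrow, with 154 ± 14.8 TPM in lung and 259 ± 5.50 TPM in bone marrow (-0.76).

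Cytokine receptors were more often higher in lung, with 14 of 26 tested, against 13.3% of all genes. The 8 higher in bone marrow were near the 30.1% of all genes, and 4 were not called. The list median of 0.27 was 0.15 with no filter on low values and 0.55 under the median log2 ratio scaling. Ifngr1 (ENSMUSG00000020009), the ligand-binding chain of the interferon-gamma receptor, had 1732, 1756 and 1721 TPM in lung and 451, 456 and 440.3 TPM in bone marrow (1.95, SE 0.03, limma adjusted p 5.19e-07). Il4ra (ENSMUSG00000030748), shared by the receptors for IL-4 and IL-13, had 282, 288 and 296 TPM in lung and 56.5, 59.8 and 57.5 TPM in bone marrow (2.30, SE 0.06). Ifnar1 (1.69), Il6st (1.68), Il21r (1.42), Il2rb (1.18) and Il7r (0.96) were higher in lung. Il12rb1 (ENSMUSG00000000791), a chain for IL-12 and IL-23, went the other way with 9.44, 5.63 and 6.49 TPM in lung and 34.6, 35.8 and 31.9 TPM in bone marrow (-2.13, SE 0.20). Il9r, a receptor chain for IL-9, had 15.3 ± 5.84 TPM and 56.2 ± 2.16 TPM (-1.87).

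The list of genes fed back by IL-2 and STAT5 had 10 of 16 higher in lung, 3 higher in bone marrow and 3 not called. The shares of all genes were 13.3% in lung and 30.1% in bone marrow, and the list median was 0.39. Socs3 (ENSMUSG00000053113, chr11:117966079-117970047), an inhibitor of cytokine signalling, had 557, 592 and 626 TPM in lung and 59.6, 66.5 and 67.01 TPM in bone marrow, a log2 fold change of 3.18 (SE 0.07, limma adjusted p 1.21e-06). Stat5a (ENSMUSG00000004043), which carries the IL-2 signal to the nucleus, had 243, 224 and 224 TPM in lung and 36.99, 35.4 and 36.9 TPM in bone marrow (2.63, SE 0.07), and its neighbour Stat5b had a log2 fold change of 1.73. The kinase gene Pim1 (1.005) and Socs1 (0.78) were higher in lung. Cish, the target gene most directly tied to STAT5, was called higher in lung with a difference of 0.26 (91.7 ± 6.11 TPM and 76.1 ± 1.36 TPM). Gfi1 (-1.17), Osm (-1.09) and Jak3 (-0.59) were higher in bone marrow.

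Cytokine and repair factor genes fell on both sides: 7 of 23 tested were higher in lung, 9 were higher in bone marrow and 7 were not called, against 13.3% and 30.1% of all genes. The median was -0.24, was -0.14 without lung replicate 1 and -0.47 among genes of at least 10 TPM, and was 0.03 when libraries were scaled by the median log2 ratio. Tnfsf8 (ENSMUSG00000028362), the ligand of CD30, had 113, 112 and 111 TPM in lung and 12.4, 10.6 and 11.2 TPM in bone marrow (3.19, SE 0.10). Il6 (13.5 ± 0.56 TPM against 1.21 ± 0.20 TPM, 2.72) and Il2 (5.03 ± 1.21 TPM against 0.21 ± 0.14 TPM, 2.30) were low in both groups and higher in lung. Ltb (ENSMUSG00000024399), the lymphotoxin chain that shapes lymphoid tissue, had 281, 286 and 296 TPM in lung and 961, 1013 and 989 TPM in bone marrow (-1.77, SE 0.04), while lymph node and spleen had 1062 and 1116 TPM. Lta (-1.61), Csf1 (-1.67), Ifng (-1.45) and Osm were higher in bone marrow, and Tgfb1 was not called (limma adjusted p 0.0545).

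Of 20 T cell receptor and signalling genes, 5 were higher in lung, 6 higher in bone marrow and 9 not called, against 13.3% and 30.1% of all genes. The median was 0.06, and was 0.02 without lung replicate 2 and without lung replicate 3. Scaling by the median log2 ratio gave 11 higher in lung and a median of 0.34, and leaving out bone marrow replicate 1 gave 3. Cd28, the main costimulatory receptor, had 208 ± 10.1 TPM in lung and 65.1 ± 0.95 TPM in bone marrow (SD, n = 3, 1.66). The proximal kinase Lck had 286, 301 and 313 TPM in lung and 554, 597 and 545 TPM in bone marrow (-0.91, SE 0.06), and the adaptor Lat (-0.95), Bcl11b (-0.89) and Thy1 (-0.62) were likewise higher in bone marrow.

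Zbtb7b (ENSMUSG00000028042, chr3:89377644-89394776) encodes ThPOK, the factor that keeps T cells in the CD4 lineage. It had 10.3, 11.2 and 12.2 TPM in the lung libraries and 148, 126 and 128 TPM in the bone marrow libraries. Bone marrow was 11.9 times as high (log2 fold change -3.46, SE 0.11, limma adjusted p 4.03e-06), although Cd4 itself overlapped. The other 4 sites had means of 91.9 TPM in liver, 98.7 in spleen, 100.1 in blood and 134 in lymph node, so the lung libraries were the ones that stood apart. Among CD8 T cell genes, Cd8a had 2.27 ± 0.97 TPM in lung and 4.59 ± 1.08 TPM in bone marrow and Cd8b1 8.05 ± 0.73 and 7.85 ± 0.89 TPM, and neither was called.

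**Figure D5:**
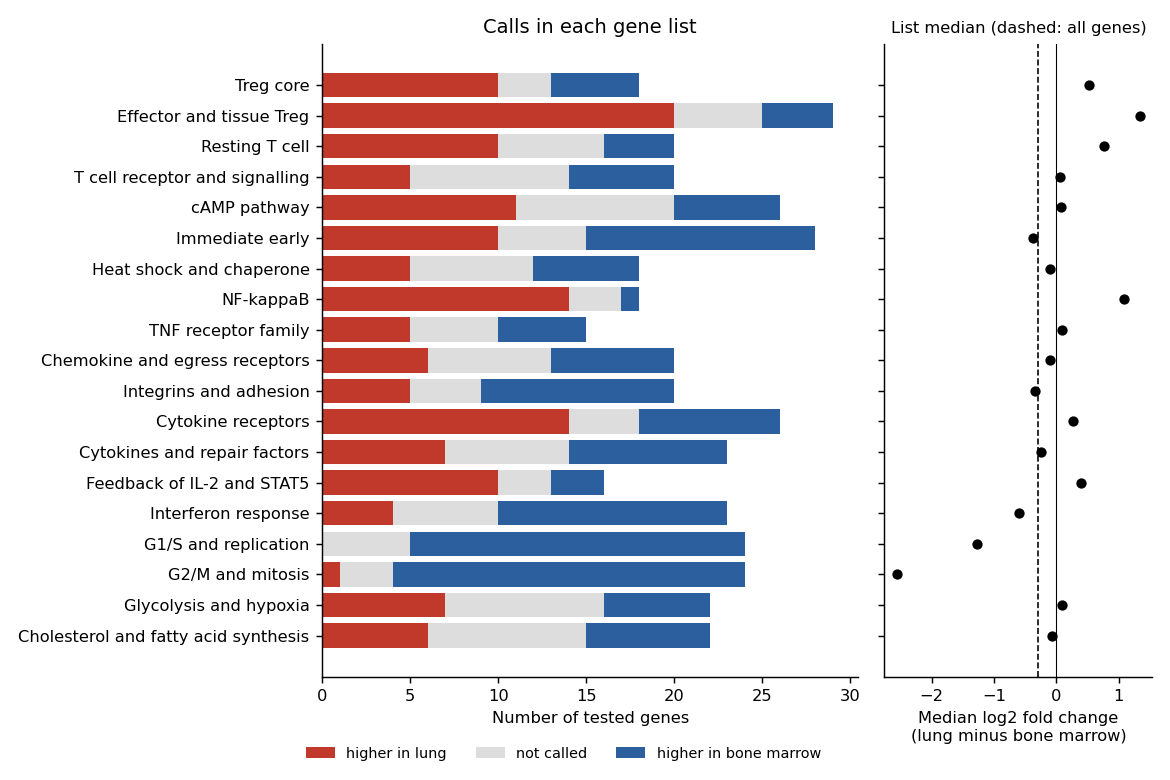
For each of 19 gene lists, the number of tested genes higher in lung, not called and higher in bone marrow (left), and the median log2 fold change with the median of all tested genes as a dashed line (right). The NF-kappaB and effector lists have the highest medians (1.08 and 1.34) and both cell cycle lists the lowest (-1.28 and -2.56).

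Most cell cycle genes were lower in lung. Of 24 genes of G1/S and DNA replication, 19 were higher in bone marrow, 5 were not called and none was higher in lung, although 1 was without lung replicate 3 and 4 were when libraries were scaled by the median log2 ratio. The median was -1.28. Of 24 genes of G2/M and mitosis, 20 were higher in bone marrow, 1 was higher in lung and 3 were not called. Their median was -2.56, against -0.29 for all genes tested. Over all genes tested, 30.1% were higher in bone marrow and 13.3% in lung. Plk1 (ENSMUSG00000030867, chr7:122159439-122169873), the mitotic polo-like kinase, had 0.57, 0.93 and 0.98 TPM in lung and 30.6, 27.6 and 28.2 TPM in bone marrow, a log2 fold change of -4.03 (SE 0.19, limma adjusted p 1.57e-05). Cdc20 (ENSMUSG00000006398, chr4:118432901-118437352), the activator of the anaphase-promoting complex, had 2.46, 4.52 and 2.62 TPM in lung and 43.4, 45.4 and 48.6 TPM in bone marrow (-3.51, SE 0.21). Ube2c, the ubiquitin-conjugating enzyme of that complex, had 6.54 ± 2.60 TPM against 71.9 ± 7.16 TPM (SD, n = 3, -3.32). The spindle gene Tpx2 (-3.76), the kinases Aurka (-3.41) and Aurkb (-3.34), Ccnb1 (-3.28) and Mki67 (-2.53) were higher in bone marrow.

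In the replication list, E2f2 (-2.96), Ccne1 (-2.54) and the ribonucleotide reductase subunit Rrm2 (14.5 ± 2.41 TPM in lung and 87.1 ± 3.70 in bone marrow, -2.52) led, and Mcm5 had a log2 fold change of -1.78. Pcna (95% interval -0.01 to 0.46) and Mcm4 (-0.12 to 0.25) were not called. Cenpa (ENSMUSG00000029177), the histone variant of centromeres, was the mitotic gene higher in lung, with 253, 251 and 224 TPM in lung and 119, 110.1 and 115 TPM in bone marrow (1.07, SE 0.07). Without lung replicate 1, 2 mitotic genes were higher in lung. Plk1 had 7.49 TPM in lymph node, 6.31 in spleen, 9.47 in liver and 1.49 in blood, so bone marrow was the highest of the 6 sites and lung the lowest. Erythroid, neutrophil precursor and B precursor markers, which belong to dividing cells of the marrow, were higher in the bone marrow libraries too, by the sums given above, and their part in the cell cycle genes was not tested.

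The promoters of Cdc20 and Plk1 are shown because 20 of 24 mitotic genes were higher in bone marrow and many of them hold the cell cycle homology region, TTTGAA, marked in capitals. They run 5′ to 3′ on the strand of the gene, over the same span around the RefSeq start as above, at chr4:118437294-118437593 for Cdc20 and chr7:122159185-122159484 for Plk1 (GRCm38.p6).
Cdc20: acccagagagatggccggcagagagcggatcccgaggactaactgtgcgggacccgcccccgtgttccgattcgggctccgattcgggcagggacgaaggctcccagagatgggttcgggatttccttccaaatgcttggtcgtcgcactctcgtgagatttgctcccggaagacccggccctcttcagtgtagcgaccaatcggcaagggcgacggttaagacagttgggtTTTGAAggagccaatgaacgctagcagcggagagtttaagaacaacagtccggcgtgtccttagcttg
Plk1: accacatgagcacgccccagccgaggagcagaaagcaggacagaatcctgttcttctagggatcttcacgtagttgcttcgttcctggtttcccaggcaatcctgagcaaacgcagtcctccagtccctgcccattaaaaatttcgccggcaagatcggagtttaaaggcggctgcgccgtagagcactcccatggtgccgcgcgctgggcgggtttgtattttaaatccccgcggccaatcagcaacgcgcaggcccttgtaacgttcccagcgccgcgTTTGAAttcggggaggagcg
TTTGAA starts 18 bases before the start of Cdc20 and 30 bases after that of Plk1. Searched on both strands, it was found for 15 of the 20 mitotic genes with a window (75%), against 20.2% of all genes with a window. Among the mitotic genes higher in bone marrow it was found for 11 of 16 (68.8%), a share no larger than that of the whole list. For genes of G1/S and replication it was found for 3 of 20 (15%). The window of Cenpa, which was higher in lung, holds TTTGAA as well.

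Of 23 interferon response genes, 13 were higher in bone marrow, 4 were higher in lung and 6 were not called, against 30.1% and 13.3% of all genes tested. Their median was -0.60, and -0.33 when libraries were scaled by the median log2 ratio. Without bone marrow replicate 1, 8 rather than 13 were higher in bone marrow, and without replicate 2 or replicate 3 the number was 9. Mx1 (ENSMUSG00000000386), an antiviral GTPase, had 2.07, 2.59 and 2.27 TPM in lung and 18.6, 9.93 and 10.9 TPM in bone marrow (-2.05, SE 0.27), and bone marrow replicate 1 was the highest. Oas3 (-1.47), Oasl2 (-1.37) and Ifit3 (-1.20) were higher in bone marrow. Genes more tied to interferon-gamma were among those higher in lung: Irf1 (334 ± 34.5 TPM in lung and 183 ± 4.62 in bone marrow, 0.86), Igtp (0.81) and Gbp2 (0.66), together with Irf7 (0.57).

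Of 18 heat shock and chaperone genes, 5 were higher in lung, against 13.3% of all genes. Another 6 were higher in bone marrow, near the 30.1% of all genes, and 7 were not called. The list median was -0.11 and ran from -0.22 without lung replicate 1 to -0.02 without lung replicate 2. It was 0.15 when libraries were scaled by the median log2 ratio. The chaperones Bag3 (1.45) and Hspa4 (1.40) were higher in lung, and Stip1 (-1.12) and Ahsa1 (-0.70) in bone marrow. Hspa1a and Hspa1b, near-identical inducible copies of HSP70 whose reads cannot be assigned with certainty, had 124 ± 12.97 and 199 ± 10.2 TPM in lung and 146 ± 6.04 and 315 ± 3.10 TPM in bone marrow (SD, n = 3), and of the pair only Hspa1b was called (-0.66). In liver, the same pair reached 1495 ± 128 and 2470.3 ± 261 TPM.

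Of 22 glycolysis and hypoxia genes, 7 were higher in lung, 6 were higher in bone marrow and 9 were not called. Over all genes tested, 13.3% were higher in lung and 30.1% in bone marrow, so the bone marrow count was near that share. The median of 0.08 was 0.16 without lung replicate 2, 0.04 without lung replicate 3 and 0.37 under the median log2 ratio scaling. Hif1a (ENSMUSG00000021109), the oxygen-regulated transcription factor, had 469.9, 463 and 465 TPM in lung and 108, 114 and 109 TPM in bone marrow (2.07, SE 0.05). The oxygen sensor gene Egln3 (1.78), the glucose transporter Slc2a1 (1.19), Ddit4 (0.91) and the lactate dehydrogenase Ldha (0.86) were also higher in lung. Slc2a3 (ENSMUSG00000003153), another glucose transporter, was the reverse, with 23.2, 17.1 and 16.6 TPM in lung and 138, 144 and 144 TPM in bone marrow (-2.85, SE 0.14), as were Hk1 (-1.39) and Pkm (-0.72). Gapdh and Pgk1 were not called.

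Of 22 genes of cholesterol and fatty acid synthesis, 6 were higher in lung, against 13.3% of all genes. Another 7 were higher in bone marrow, near the 30.1% of all genes, and 9 were not called. The list median was -0.07, but 0.19 when libraries were scaled by the median log2 ratio. It was 0.05 among genes of at least 10 TPM and 0.01 without lung replicate 2. The 7 calls became 4 without bone marrow replicate 1 and 3 without replicate 2. Elovl6 (ENSMUSG00000041220), which lengthens palmitate, had 56.1, 51.7 and 64.3 TPM in lung and 5.16, 4.50 and 5.05 TPM in bone marrow (3.30, SE 0.14), and the other sites had between 4.48 and 6.29 TPM. In the sterol branch, Cyp51 (1.58), Insig1 (1.24), Idi1 (0.78) and Hmgcs1 (0.67) were higher in lung, beside Mvk from the same pathway. Scd2 (-1.13), Acly (-0.42) and Fads2 (0.08 TPM in lung and 6.59 ± 0.43 in bone marrow) were higher in bone marrow.

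The 8 called genes with the largest differences in favour of the bone marrow, among those with a mean of 10 TPM or more there, were mostly those of neutrophil and eosinophil granules. Camp (ENSMUSG00000038357, chr9:109847379-109849617), the antimicrobial peptide cathelicidin, had 5.11, 3.45 and 27.2 TPM in lung and 1892, 2018 and 2083 TPM in bone marrow, a log2 fold change of -7.77 (SE 0.65, limma adjusted p 0.000189). Elane (ENSMUSG00000020125, neutrophil elastase) had 0, 1.51 and 2.55 TPM in lung and 359.8, 376 and 363 TPM in bone marrow (-7.47). The log2 fold changes were -7.37 for the protease Prtn3, -7.25 for Ngp, -7.10 for the eosinophil basic protein Prg2, -6.75 for Fcnb, -6.65 for Cd177 and -6.65 for the iron-trapping lipocalin Lcn2. All 19 neutrophil genes tested were called higher in bone marrow, where 30.1% of all genes were. The calprotectin genes S100a9 (ENSMUSG00000056071) and S100a8 were the most abundant, with S100a9 at 20689, 20691 and 20725 TPM in bone marrow and 328, 298 and 342 TPM in lung (-6.003, SE 0.05).

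Other genes higher in bone marrow were named from those with at least 10 TPM in lymph node. The haem synthesis enzyme Alad (ENSMUSG00000028393) had 88.3 ± 7.19 TPM in bone marrow (SD, n = 3) against 7.28 ± 4.23 TPM in lung (-3.56). It stood beside erythroid markers such as Klf1, with 29.4, 28.7 and 26.3 TPM in bone marrow and 0, 0 and 0.19 TPM in lung, and Car2 (-4.59). Ly6c2 (ENSMUSG00000022584), a surface protein of monocytes and some T cells, had 25.2, 14.3 and 22.7 TPM in lung and 425, 414 and 431 TPM in bone marrow (-4.33, SE 0.20), and Pglyrp1, a peptidoglycan-binding protein of granules, had a log2 fold change of -3.40. Rdm1 and Rln3 varied widely among the lung libraries (1.00, 16.9 and 1.34 TPM for Rdm1 and 0, 10.1 and 6.49 TPM for Rln3), and their calls were lost without bone marrow replicate 1 (adjusted p 0.0517 and 0.0708) or replicate 2 (adjusted p 0.0524 and 0.0845). Rln3 also lost its call without bone marrow replicate 3 (adjusted p 0.0747).

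Genes of the B lineage were higher in bone marrow for all 12 markers, where 30.1% of all genes were. Only 8 of the 12 averaged 1 TPM or more in lung, so the others entered the test through their bone marrow level. Igll1 (ENSMUSG00000075370), the surrogate light chain of B precursors, had 26.5, 25.2 and 23.1 TPM in bone marrow and was listed at 0 in all 3 lung libraries. Jchain, a plasma cell gene, had 1.17 ± 1.68 TPM in lung and 61.9 ± 3.37 TPM in bone marrow (SD, n = 3, -5.12). Of the remaining genes with the largest differences in favour of the lung, Plet1 (ENSMUSG00000032068), an epithelial and lymphoid surface protein, had 49.95, 35.4 and 43.9 TPM in lung and 0, 0.08 and 0.08 TPM in bone marrow. Cxcl1 (ENSMUSG00000029380), a chemokine that attracts neutrophils, had 34.1, 28.8 and 44.5 TPM in lung and 0.48, 0.16 and 0 TPM in bone marrow. With bone marrow so near 0, no fold is given for either gene.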

How the data were processed

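Poly(A) RNA was sequenced from 18 libraries, of which 3 lung and 3 bone marrow libraries were compared. The authors deposited TPM values per Ensembl gene (55487 IDs, of which 55141 matched a symbol). Per the submitters' processing notes, STAR, RSEM and mm10 were used; their versions, the annotation and strand settings are not given in the sources used here. Directional libraries were made, per the labels' protocols.

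TPM plus a pseudocount of 1 was taken to log2 and fitted in limma 3.58.1 (R 4.3.3; eBayes with trend and robust settings), with no covariate, over genes averaging 1 TPM or more in lung or in bone marrow. Genes were called at a Benjamini-Hochberg adjusted p under 0.05 over all 14944. The fit was tested on simulated data first. TPM keeps no depth, so it was read from steps of single-transcript genes of 900 to 8000 bases, where 82.2% to 90.4% of low values of up to 8 reads fell within 0.1 of a whole read.

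Named were the 8 genes per direction with the largest change among called, non-overlapping genes that averaged 10 TPM or more on their higher side; the 12 per direction among genes of at least 10 TPM in lymph node; the 4 called genes per direction with the largest change in each of 19 lists; and 5 label checks. Predicted genes, receptor segments and small RNAs were left out of the first 2 groups. Other list genes that are named were chosen after their values were seen. The comparison, lists and rules were chosen with earlier results of these data known, and the lists are described by counts and medians without a test. Coordinates of genes are from GENCODE and promoters from RefSeq, both on GRCm38, with a window for 126 of 166 named genes. Same-numbered lung and bone marrow libraries deviated from their group means with correlations across genes of 0.022, 0.027 and -0.011. With 3 libraries per group, these values cannot decide whether same-numbered libraries shared an animal, day or batch, and the labels do not say. The closing section gives the effect of other pseudocounts, filters, scalings, weights, a replicate block and leaving out each library. Some genes are not reported here.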

Additional observations from a re-analysis of the deposited data

How the results depend on the processing

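Scaling by the median log2 ratio moved the counts most, to 3024 genes higher in lung, and among lymph-node-expressed genes to 2297 higher in lung and 1597 higher in bone marrow. With the replicate number as a block, 1744 genes were higher in lung and 3953 higher in bone marrow, which changed neither count by more than 1.5 times. Without single libraries, counts ran from 1482 to 2218 genes in lung and 3082 to 4767 in bone marrow, and among lymph-node-expressed genes from 1082 to 1528 and 1853 to 2900. All other alternatives stayed within 1.5 times, and 1 gene changed direction among the calls, under the median log2 ratio scaling. Of 164 named genes that were called, 147 kept call and direction in every alternative that tested them and 17 lost the call in at least 1. The filter at 10 TPM tested 154 of the 166 named genes, and rescaling without abundant RNA classes and other-cell markers tested 155. Cd3e and Cd4, neither of them called in the main fit, changed sign. Cd3e went to -0.0203 when scaled to 20 T cell genes and to -0.0023 with library weights. Without single libraries it ran from -0.039 (lung replicate 3) to 0.0418, with -0.0208 without bone marrow replicate 1. Without single libraries, Cd4 ran from -0.066 (lung replicate 2) to 0.13. Under the median log2 ratio scaling both genes were called higher in lung. Cd4 then had a log2 fold change of 0.32 (limma adjusted p 0.0392) and Cd3e one of 0.29 (limma adjusted p 0.00598). The median log2 ratio scaling moved list counts by over 1.5 times beyond those given beside the results: 8 heat shock and 8 TNF receptor genes were higher in lung, and 7 integrin, 5 cytokine receptor, 3 core Treg, 2 lipid synthesis and 0 NF-kappaB genes were higher in bone marrow. The cause of these shifts was not tested. Lung libraries were the shallower, which limits what can be said of genes below a few TPM there.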
